A study of Mus musculus with 36 samples.

Results

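Lung transcripts of male mice exposed to oil were compared with those of male mice that received saline, with 3 mice in each group. The 6 mice are saline mice 1 to 3 and oil mice 4 to 6 of the 18 male mice, out of 36 mice in all, and every gene row of the male count table was used. All were wild-type C57BL/6 mice, 8 weeks old at the first dose, and the label of each sample gave its group. In each sex the 6 groups of 3 mice were saline (control), oil, 2 groups given a dispersant alone (Corexit 9527 or Corexit 9500) and 2 given a dispersant with oil (9527+oil or 9500+oil). Oil was crude oil of the Macondo well (MC252 oil), of which 1 part was mixed with 20 parts of Hank's Balanced Salt Solution, and the saline phase was diluted to 0.1 of its strength (0.1 SAF, saline-accommodated fraction). Each mouse received 50 µL on days 0, 7 and 13, and the left lung was taken on day 14, so that the transcripts were read 1 day after the last of 3 doses. The methods give the route as oropharyngeal aspiration and the deposited design gives intratracheal instillation. The oil mice therefore received what passed from the oil into saline, as a liquid. Whole lung tissue was sequenced, so that a change in the number of cells of a type and a change in the RNA of each cell cannot be told apart here.

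Several systems can respond to inhaled material in the lung. Alveolar macrophages take it up and break it down in lysosomes, and with the epithelium they release chemokines, which draw neutrophils and monocytes out of the blood. Epithelial cells also secrete antimicrobial and acute phase proteins and complement when cytokines such as IL-17 and TNF act on them. Polycyclic aromatic hydrocarbons of crude oil are ligands of the aryl hydrocarbon receptor, whose best known target is Cyp1a1, and the club cells of the airways hold the cytochromes P450 that metabolize many inhaled compounds.

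Between 17703655 and 29685060 reads were counted on genes in each of the 6 mice, the fewest in oil mouse 5 and the most in oil mouse 6. Pearson correlations of log2 levels lay between 0.965 and 0.979 over the 15 pairs of mice. The lowest chi-square per gene of a pair was 13.7, for saline mouse 3 and oil mouse 5, so by this measure the closest pair crossed the groups. It was far above the value near 1 of counts that differ by sampling noise alone. The labels name separate mice, and each was counted as a separate sample. Mitochondrial genes took 5.27% to 6.93% of the counts in saline and 6.06% to 6.41% in oil mice. Markers of the lung were high in all 6 mice, with 10700 to 13100 CPM (counts scaled to library size) of the surfactant gene Sftpc and 14700 to 21100 CPM of the club cell gene Scgb1a1. The Y-linked genes Kdm5d (33.8 to 38.7 CPM) and Uty (18.4 to 26.1 CPM) matched the label male.

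Oil mice had higher levels of many listed genes of innate immunity, phagocytes and cell division. They had lower levels of many listed genes of xenobiotic metabolism, muscle and fat, as mice of other treated groups did in part. The lists were written with earlier results of these data known. With 3 mice a group almost none of these differences passed a test gene by gene. Of 14914 genes tested with edgeR's quasi-likelihood test, 1 was higher at an adjusted p under 0.05 (0.00671% of those tested), which was Prg4, and 0 were lower. At an unadjusted p under 0.05, 858 of the genes (5.75%) had higher levels and 366 (2.45%) lower levels in oil mice. In 1086 genes (7.28%) every oil mouse was above every saline mouse, and in 829 (5.56%) every oil mouse was below. DESeq2, which the study used, gave an adjusted p to 15688 genes and called 157 higher (1.00%) and 16 lower (0.102%), and limma's voom with quality weights called 4 higher and 0 lower. The median log2 fold change over all genes tested was -0.013. The counts at an unadjusted p given for gene groups are descriptions, to be read against these shares of all genes.

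**Figure D1:**
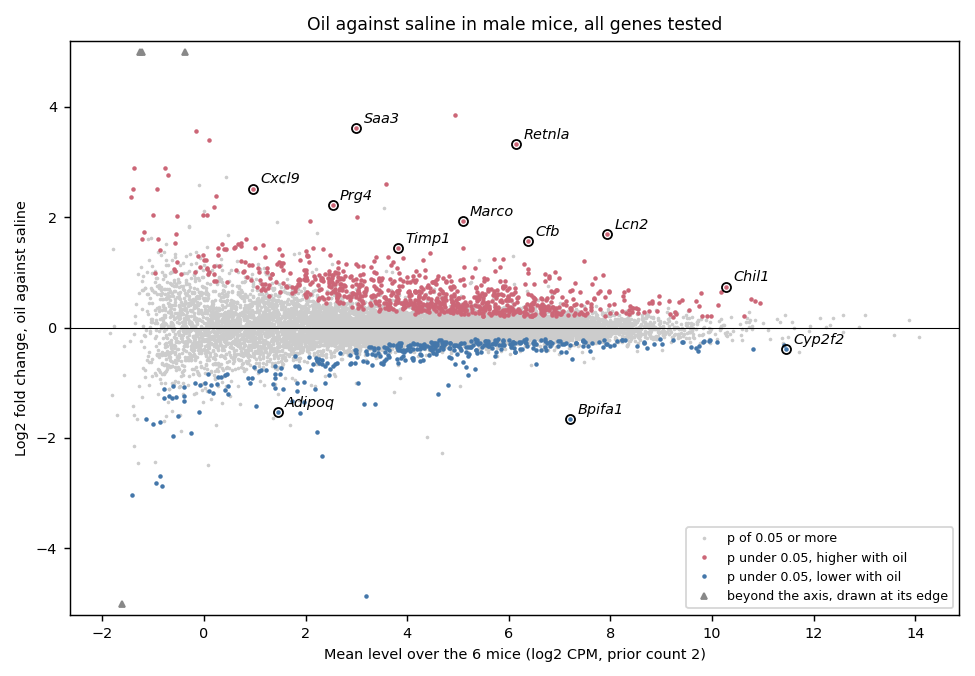
Log2 fold change (oil against saline, 3 mice each) against the mean level over the 6 mice, for the 14914 genes tested. Red points had an unadjusted p under 0.05 and higher levels in oil mice (858 genes), blue points lower levels (366 genes), and the circled genes are described in the text.

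Prg4 encodes proteoglycan 4 (lubricin), a secreted lubricating glycoprotein of joint and serosal surfaces, and lies at chr1:150449412-150466165 on the minus strand (GRCm38). It had 2.63, 2.47 and 2.82 CPM in saline mice 1 to 3 and 14.0, 11.9 and 10.9 CPM in oil mice 4 to 6. All 3 oil mice lay far above all 3 saline mice, and the spread within either group was small. Prg4 rose by a log2 fold change of 2.21 with a standard error of 0.18 (adjusted p = 0.0159), from 2.64 ± 0.18 CPM (SD, n = 3) to 12.3 ± 1.58 CPM (SD, n = 3). The adjusted p was 5.45e-17 in DESeq2, 0.0264 in voom, 0.141 with all 6 male groups in one fit and up to 0.182 with 1 mouse left out, which was saline mouse 2. Prg4 is listed here among genes of the mesothelium, the outer lining of the lung. Of the 13 tested mesothelial genes 1 was higher, Prg4 itself, and 3 were lower at an unadjusted p under 0.05 (median -0.116). Upk3b, a membrane protein of these cells, had 94.8, 83.3 and 77.5 CPM in saline against 67.9, 64.2 and 62.6 CPM in oil mice.

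Lcn2 encodes lipocalin-2, an iron-scavenging antimicrobial protein that epithelium and neutrophils release (chr2:32384633-32388252, minus strand). Its level was 139, 150 and 127 CPM in the saline mice and 482, 321 and 538 CPM in the oil mice. The lowest oil mouse was above the highest saline mouse by more than the range of the saline mice. The log2 fold change was 1.69 ± 0.18 (SE) with an adjusted p of 0.0823, which missed the threshold. It passed in DESeq2 (7.43e-17) and in voom (0.0264), with no filter on low counts and with a filter of 10 counts in every mouse, and its adjusted p was 0.00521 to 0.334 with 1 mouse left out, the highest without saline mouse 3.

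Saa3, an acute phase apolipoprotein made in the lung (chr7:46711998-46715700, minus strand), had the largest log2 fold change of the 30 genes named by their p values. It was at 5.26, 0.895 and 1.73 CPM in saline and at 38.8, 16.9 and 40.8 CPM in oil mice, a log2 fold change of 3.61 ± 0.57 (SE, adjusted p = 0.169). Timp1, an inhibitor of matrix metalloproteinases, had 8.38, 9.79 and 7.65 CPM in saline and 28.7, 17.5 and 23.8 CPM in oil mice (1.44 ± 0.20, adjusted p = 0.150). Both genes were lowest in oil mouse 5 among the oil mice, as was Lcn2. In all of them the groups did not overlap, which was a condition for naming them by their p values. Ly6i, a member of the Ly6 family of surface proteins, had 1.78 to 2.37 CPM in saline and 6.23 to 9.33 CPM in oil mice (1.94 ± 0.24, adjusted p = 0.106). Reads of Ly6i can be shared with near-identical Ly6 genes, so its value is uncertain.

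**Figure D2:**
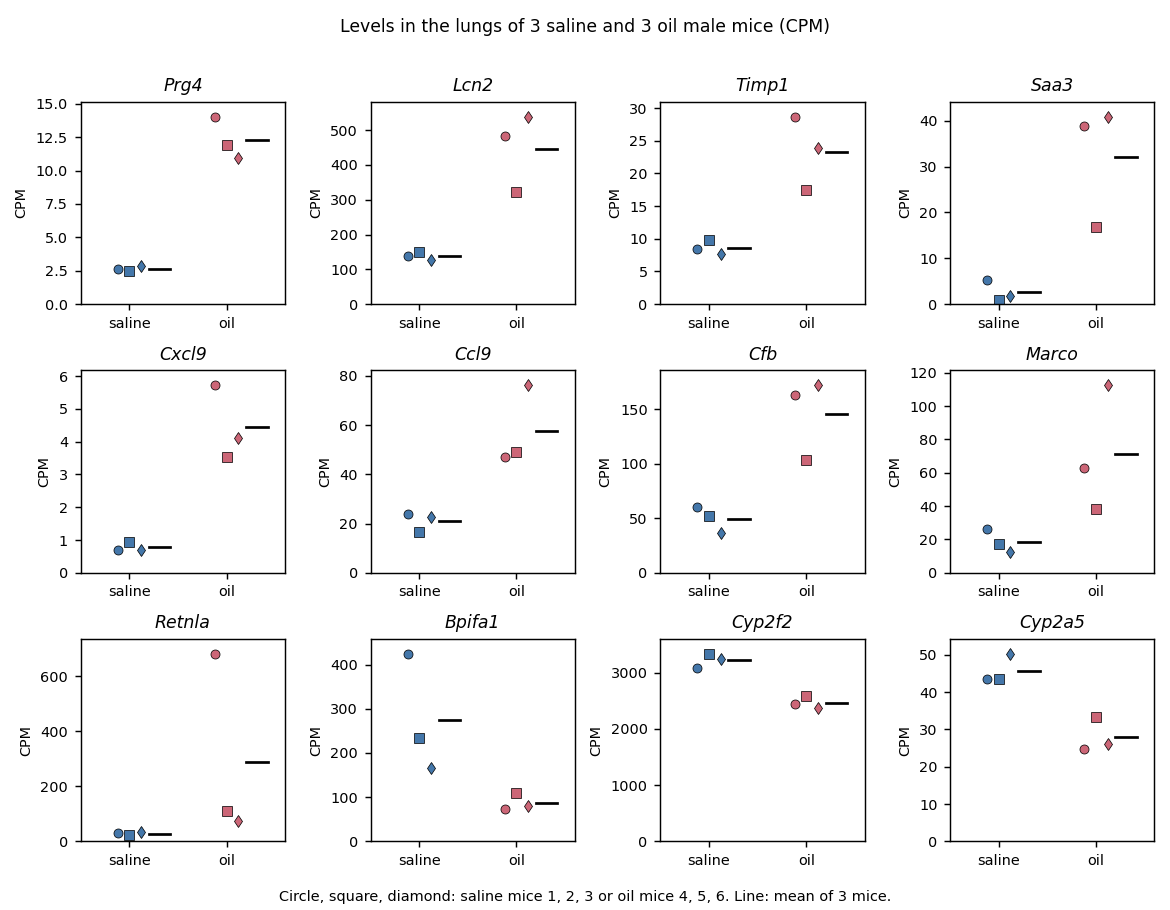
Level in CPM of 12 genes in each of the 3 saline and 3 oil male mice, where each point is a mouse and the line is the mean of 3 mice. Prg4 sat at 10.9 to 14.0 CPM in oil against 2.47 to 2.82 CPM in saline mice, Retnla was carried by oil mouse 4 at 679 CPM, and Bpifa1, Cyp2f2 and Cyp2a5 were lower in every oil mouse.

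The remaining genes with the smallest p values and higher levels in oil mice included 7 known from myeloid cells. They were Itgax (CD11c), Cd68, the C3a receptor gene C3ar1, the cathepsin gene Ctsk, the exchange factor gene Cyth4, the endosomal DNA sensor gene Tlr9 and the cytokine gene Tnfsf13 (APRIL), with log2 fold changes between 0.66 and 1.20 and adjusted p values of 0.169. Tnfsf13 had a narrow range in the oil mice, at 20.7, 25.4 and 22.5 CPM in saline and 37.8, 36.4 and 37.3 CPM in oil mice. Ngfrap1 was the last of the 15, with a log2 fold change of 0.58. In Cd68 the saline mice had 92.0, 80.9 and 83.0 CPM and the oil mice 157, 139 and 217 CPM. The 7 myeloid genes passed an adjusted p of 0.05 in DESeq2, and with edgeR none of the 7 passed when any single mouse was left out.

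In the CC class of chemokines and their receptors, 25 genes had log2 fold changes above 0 and 6 below 0. The class was not tested as a group. Of 31 tested CC chemokine and receptor genes, the unadjusted p was under 0.05 for 11 with higher and 0 with lower levels, with a median log2 fold change of 0.441, and 4 passed in DESeq2 and 0 in edgeR. The 8 tested inflammatory ligands carried most of this, since 6 were higher at that p and their median was 1.02. Ccl9, a ligand of Ccr1, had 24.0, 16.5 and 22.5 CPM in saline and 47.0, 49.1 and 76.1 CPM in oil mice, with a log2 fold change of 1.45 ± 0.22 (SE, adjusted p = 0.169). Ccl6, a related ligand, had 157, 139 and 165 CPM against 238, 250 and 375 CPM (0.90 ± 0.18, adjusted p = 0.236). Ccl2, which recruits monocytes through Ccr2, was at 0.59 to 1.26 CPM in saline and 2.19 to 3.42 CPM in oil mice (1.54 ± 0.37, adjusted p = 0.319). The groups did not overlap in any of these 3 ligands. The receptor gene Ccr2 (1.15 ± 0.36) overlapped between the groups.

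The CXC class differed less, with 3 of 19 tested genes higher and 2 lower at an unadjusted p under 0.05 and a median of 0.13. Cxcl9, an interferon-induced ligand of Cxcr3 that draws T cells, did not overlap between the groups. It had 0.69, 0.95 and 0.68 CPM in saline and 5.71, 3.53 and 4.12 CPM in oil mice, a log2 fold change of 2.52 ± 0.32 (SE, adjusted p = 0.106). Of the 5 tested ligands that draw neutrophils, 4 had log2 fold changes above 0 (median 0.41). Cxcl3, at 0.595, 0 and 0.0455 CPM in saline and 1.28, 1.12 and 1.31 CPM in oil mice, was low throughout and did not overlap (2.51 ± 0.87, adjusted p = 0.490). Cxcl1 was at 0.46 to 1.34 CPM in saline and 1.28 to 1.46 CPM in oil mice and overlapped, and the platelet gene Ppbp was lower in every oil mouse (-0.54 ± 0.14).

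Saa3, Cxcl9 and Ccl9 are 3 secreted mediators whose levels did not overlap between the groups, and the bases upstream of their start sites are shown for that reason, from RefSeq promoters of build GRCm38.p6, 5′ to 3′ on the minus strand, which is the coding strand of all 3. The Saa3 sequence is chr7:46715701-46715926, that of Cxcl9 is chr5:92328080-92328329 and that of Ccl9 is chr11:83578637-83578886, and each ends before the first annotated exon. For Saa3 the RefSeq start lies 24 bases further on, inside the exon, and those bases are not printed. Capitals mark matches to the 3 motifs searched on both strands, which were the STAT motif GAS (TTCNNNGAA), C/EBP (TTGCNNAA) and the NF-kB consensus (GGG, a purine, any 2 bases, 2 pyrimidines and CC). The 250 bases before the start held GAS in 7.02%, C/EBP in 9.57% and NF-kB in 7.25% of 32841 promoters.
Saa3: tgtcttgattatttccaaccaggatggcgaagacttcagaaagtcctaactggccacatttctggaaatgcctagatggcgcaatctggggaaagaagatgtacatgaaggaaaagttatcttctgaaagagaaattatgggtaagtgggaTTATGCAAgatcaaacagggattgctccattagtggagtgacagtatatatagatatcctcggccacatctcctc
Cxcl9: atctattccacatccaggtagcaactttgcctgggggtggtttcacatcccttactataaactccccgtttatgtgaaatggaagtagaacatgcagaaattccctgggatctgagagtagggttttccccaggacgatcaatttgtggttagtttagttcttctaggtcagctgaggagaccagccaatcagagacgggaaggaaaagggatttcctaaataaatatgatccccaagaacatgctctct
Ccl9: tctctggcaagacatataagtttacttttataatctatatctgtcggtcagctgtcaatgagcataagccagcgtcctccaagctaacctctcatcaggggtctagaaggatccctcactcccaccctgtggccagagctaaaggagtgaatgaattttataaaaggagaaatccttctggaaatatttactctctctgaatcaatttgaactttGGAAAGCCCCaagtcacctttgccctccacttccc

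The Saa3 promoter held a C/EBP match on the opposite strand 99 to 92 bases before the RefSeq start, which is 75 to 68 bases from the end of the printed run, the Ccl9 promoter held an NF-kB match on the opposite strand 35 to 26 bases before it, and the Cxcl9 window held none of the 3 motifs. A match is a match of letters and was not tested for binding.

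Interleukins and their receptors form the next group. Of 63 tested interleukin and receptor genes, 11 were higher and 0 lower at an unadjusted p under 0.05 (median 0.181, DESeq2 called 4 higher), and the colony-stimulating factors and their receptors accounted for 6 of the 11, with 12 tested and a median of 0.561. Csf2ra, Csf2rb and Csf2rb2, subunits of the GM-CSF and related receptors, had log2 fold changes of 0.80, 0.90 and 0.88 with adjusted p values of 0.236 to 0.246. Csf2rb had 78.5, 84.3 and 83.3 CPM in saline and 133, 125 and 201 CPM in oil mice. Il1rn, the IL-1 receptor antagonist, had 14.3, 10.1 and 15.3 CPM in saline and 29.5, 20.7 and 42.8 CPM in oil mice (1.23 ± 0.27, adjusted p = 0.273), while Il1b, at 22.4, 16.8 and 18.1 CPM against 16.1, 28.9 and 47.6 CPM, overlapped. The 5 tested genes of the IL-17 family and its receptors had 0 higher and 0 lower at an unadjusted p under 0.05 in edgeR and a median of -0.011, and the 9 of the IL-6 family likewise 0 and 0. In the TNF superfamily 9 of 35 tested genes were higher and 0 lower (median 0.189, DESeq2 called 3 higher). Tnf was at 1.29 to 2.68 CPM in saline and 2.40, 3.98 and 4.19 CPM in oil mice 4, 5 and 6 and overlapped. Tnfrsf9 (4-1BB), a receptor of activated lymphocytes, had 1.74, 1.32 and 1.96 CPM against 6.73, 3.42 and 3.43 CPM (1.43 ± 0.35, adjusted p = 0.319).

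Of 40 tested target genes of IL-17 and TNF, 13 were higher and 1 lower at an unadjusted p under 0.05, with a median of 0.236. The 14 secreted and antimicrobial products held 8 of those 13 and had a median of 0.904, against 0.141 for the 26 feedback and transcription factor genes. Mmp9 (gelatinase B) had 37.2, 34.5 and 33.1 CPM in saline and 70.0, 55.5 and 121 CPM in oil mice (1.24 ± 0.25, adjusted p = 0.256). The calprotectin gene S100a8 was at 33.1, 41.8 and 47.1 CPM in saline and 45.2, 88.0 and 157 CPM in oil mice, so that oil mouse 4 overlapped the saline mice. The 1 gene of this list that was lower at that p was the immediate early gene Fos (-0.66 ± 0.29).

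Of 27 tested acute phase and host defense genes, 11 were higher and 1 lower (median 0.422), and DESeq2 called 5 higher and 1 lower. Serpina3n, a secreted protease inhibitor, had 176, 186 and 145 CPM in saline and 365, 251 and 364 CPM in oil mice (0.95 ± 0.16, adjusted p = 0.182). Chil1, a chitinase-like protein of macrophages and epithelium, had 955, 1063 and 862 CPM against 1934, 1383 and 1503 CPM (0.74 ± 0.14, adjusted p = 0.236). Retnla (RELM-alpha) is a secreted protein of type 2 responses that alternatively activated macrophages and airway epithelium make. Its level was 29.4, 23.6 and 32.8 CPM in saline and 679, 111 and 72.5 CPM in oil mice. The groups did not overlap, but oil mouse 4 stood 6 times or more above the other 2 oil mice, and the log2 fold change was 3.33 ± 0.78 (SE, adjusted p = 0.319). Bpifa1, a secreted protein of the upper airway epithelium, was the listed member with lower levels (below).

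A larger part of the complement than of the coagulation genes had small p values, and the difference between these lists was not tested. Of 21 tested complement genes, 10 were higher and 1 lower at an unadjusted p under 0.05 (median 0.349), and in 13 every oil mouse was above every saline mouse. Of 19 coagulation and fibrinolysis genes, 2 were higher and 0 lower (median 0.039). Cfb, factor B of the alternative pathway, had 60.1, 51.9 and 36.3 CPM in saline and 163, 103 and 172 CPM in oil mice (1.56 ± 0.23, adjusted p = 0.169). C1qb, a chain of C1q that macrophages make, had 39.3, 46.8 and 31.7 CPM in saline and 91.7, 63.3 and 97.9 CPM in oil mice (1.10 ± 0.19, adjusted p = 0.184). C1qa (1.03) and C1qc (0.91) had like differences. The 1 lower member was Cfd (adipsin), which fat cells make, at 26.4, 18.2 and 9.43 CPM in saline and 4.03, 11.3 and 5.40 CPM in oil mice with overlap.

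Sensors of microbial products and their adaptors form another list. Of 41 Toll and NOD-like receptor genes and their adaptors, 14 were higher and 0 lower (median 0.225, DESeq2 called 3 higher). Besides Tlr9, the inflammasome adaptor Pycard (0.69 ± 0.16) and the transcription factors Irf5 (0.69 ± 0.16) and Irf7 (0.85 ± 0.21) were higher in every oil mouse, each with an adjusted p of 0.319, whereas Tlr2, at 24.3 to 27.4 CPM in saline and 18.9 to 38.1 CPM in oil mice, overlapped. Of 49 interferon-induced genes, 7 were higher and 0 lower (median 0.116). Mx1 had 6.30, 4.21 and 4.23 CPM in saline and 9.13, 10.0 and 9.17 CPM in oil mice (0.94 ± 0.20, adjusted p = 0.273), but Ifit1, at 20.4 to 23.5 CPM against 20.1 to 24.0 CPM, was at the same level in both groups within their ranges.

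Genes of phagocytosis had the largest share of members with small p values. Of 36 tested phagosome, Fc receptor and oxidase genes, 27 were higher and 1 lower at an unadjusted p under 0.05 (median 0.63), and DESeq2 called 13 higher and 0 lower. All 6 subunits of the phagocyte NADPH oxidase were higher at that p and did not overlap between the groups. Ncf1 (p47phox) had 55.7, 41.3 and 44.7 CPM in saline and 86.9, 70.5 and 80.6 CPM in oil mice (0.75 ± 0.13, adjusted p = 0.207), and Cyba (p22phox) had 78.4, 72.8 and 69.3 CPM against 109, 99.5 and 115 CPM (0.56 ± 0.10, adjusted p = 0.191). Marco, a scavenger receptor of alveolar macrophages that binds particles, was at 26.3, 17.2 and 12.5 CPM in saline and 63.0, 38.1 and 112 CPM in oil mice (1.93 ± 0.40, adjusted p = 0.256). The C-type lectin Clec4n (Dectin-2) was at 12.5 to 13.4 CPM in saline and 18.9 to 26.5 CPM in oil mice (0.86 ± 0.15, adjusted p = 0.182).

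Of 49 lysosome genes, 24 were higher and 1 lower (median 0.252, DESeq2 called 8 higher). Ctsb (cathepsin B) had 580, 582 and 541 CPM in saline and 846, 683 and 895 CPM in oil mice (0.51 ± 0.12, adjusted p = 0.314). Of 12 genes of MHC class II presentation, 7 were higher and 0 lower (median 0.294, DESeq2 called 4 higher). Cd74, the invariant chain, had 1558, 1548 and 1548 CPM in saline and 2432, 2011 and 2040 CPM in oil mice (0.48 ± 0.10, adjusted p = 0.256), and H2-Ab1 had 374, 370 and 418 CPM against 565, 539 and 475 CPM (0.44 ± 0.10, adjusted p = 0.315). Over the 12 MHC class II genes the mean log2 level lay 0.51, 0.32 and 0.16 above the mean of the saline mice in oil mice 4, 5 and 6 and at 0.24, -0.20 and -0.04 in saline mice 1, 2 and 3, so that the groups overlapped.

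Many genes of the dividing cell were higher too. Of 59 mitosis and cell cycle genes, 29 were higher and 0 lower at an unadjusted p under 0.05 (median 0.627, DESeq2 called 3 higher), and the 34 spindle and division genes held 21 of them with a median of 0.718. Top2a, the topoisomerase of dividing cells, had 19.0, 10.7 and 14.0 CPM in saline and 30.1, 22.0 and 38.3 CPM in oil mice (1.05 ± 0.25, adjusted p = 0.319). The mitotic kinesin gene Kif20a had 5.41, 3.89 and 4.92 CPM against 8.21, 7.74 and 10.6 CPM (0.90 ± 0.21, adjusted p = 0.315). The levels were low, and saline mouse 2 was the lowest of the saline mice in both. Of 45 DNA replication genes, 16 were higher and 0 lower (median 0.321), among them Mcm6 of the replicative helicase (0.38 ± 0.11) and Tk1 (0.58 ± 0.15). Of 42 genes of DNA repair and p53 targets, 2 were higher and 0 lower (median 0.021), and they were Eme1 and Pmaip1. The parts of this list differed in sign, since 17 of 21 genes of recombination and crosslink repair had log2 fold changes above 0 (median 0.439) and 16 of 21 p53 targets below 0 (median -0.071).

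Of 37 matrix and remodeling genes, 10 were higher and 1 lower (median 0.129, DESeq2 called 5 higher). The macrophage elastase Mmp12 was at 6.45, 7.37 and 8.01 CPM in saline and 19.995, 14.9 and 9.45 CPM in oil mice (1.02 ± 0.26, adjusted p = 0.324). Col1a1 (0.30 ± 0.10) and Col3a1 (0.21 ± 0.09) of fibrillar collagen were higher in every oil mouse by small amounts, and Mmp3 overlapped, at 22.7 to 26.6 CPM in saline and 22.7 to 25.4 CPM in oil mice.

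**Figure D3:**
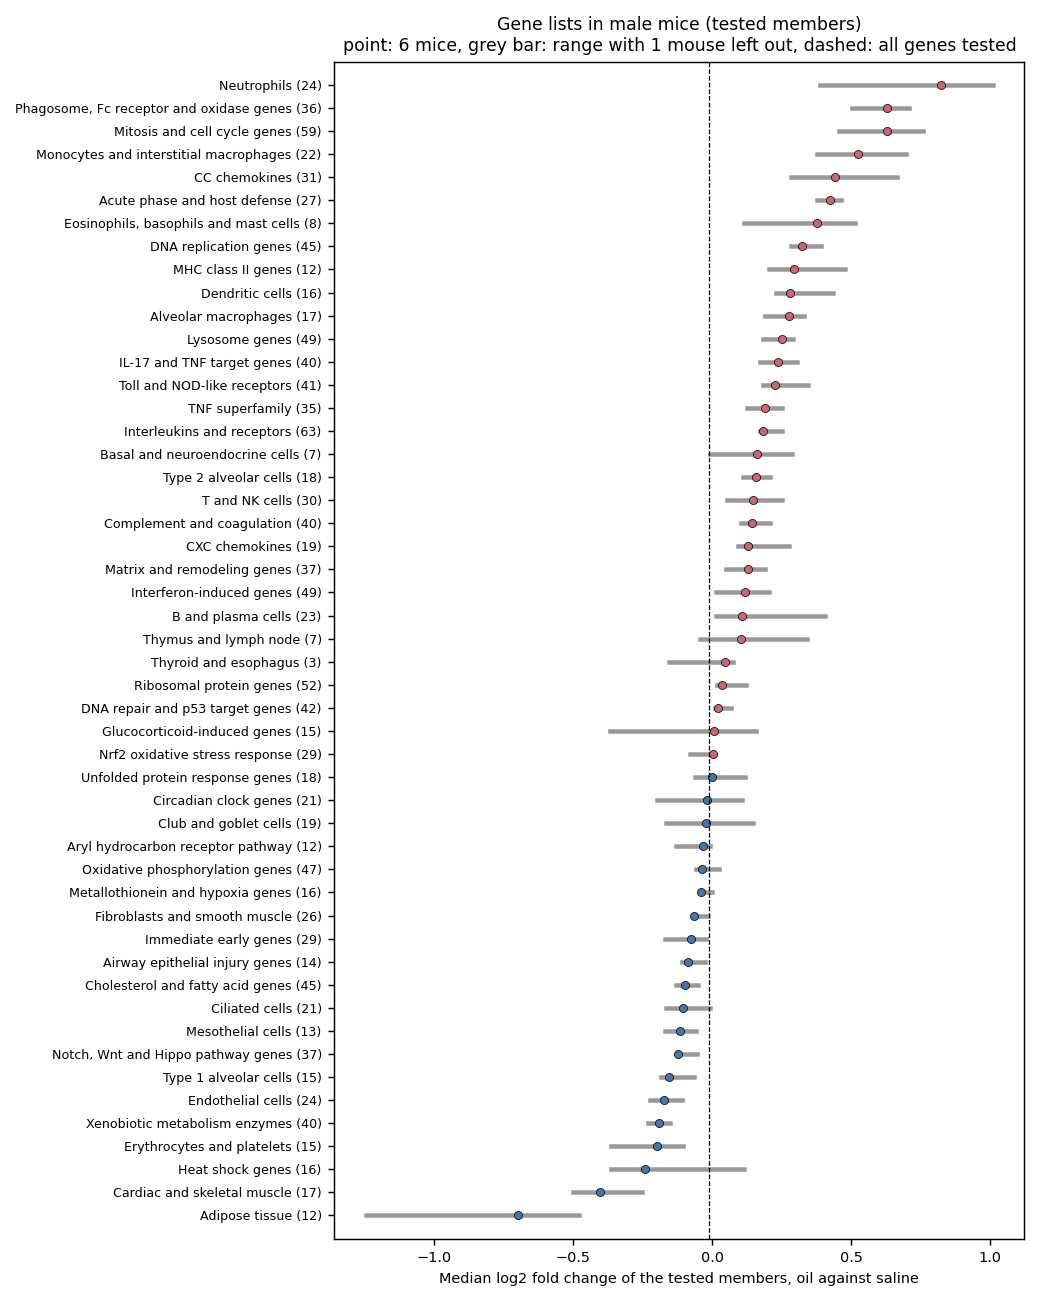
Median log2 fold change (oil against saline) of the tested members of 50 gene lists, with the number tested in brackets, where the grey bar gives the range with each of the 6 mice left out in turn and the dashed line the median of all genes tested (-0.013). Neutrophil (0.821), phagosome (0.63) and mitosis (0.627) lists were the highest and adipose (-0.699) and muscle (-0.405) lists the lowest, and the bars of 9 lists crossed 0, heat shock, clock and club and goblet lists among them.

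Lower levels in oil mice were found for enzymes that metabolize foreign compounds. Of 40 tested xenobiotic metabolism genes, 13 were lower and 2 higher at an unadjusted p under 0.05 (median -0.193), and DESeq2 called 2 lower and 0 higher. The 20 cytochromes P450 and their partners held 8 of the 13 (median -0.226). Cyp2f2, the club cell cytochrome that activates naphthalene (chr7:27119909-27133660, plus strand), had 3091, 3329 and 3246 CPM in saline and 2445, 2581 and 2370 CPM in oil mice, a log2 fold change of -0.39 ± 0.08 (SE, adjusted p = 0.275). Cyp2a5, which oxidizes coumarin and nicotine, had 43.4, 43.6 and 50.2 CPM against 24.8, 33.4 and 26.1 CPM (-0.70 ± 0.14, adjusted p = 0.236). The glutathione transferases Gstm1 (-0.37 ± 0.10) and Gsta3 (-0.32 ± 0.09) were lower in every oil mouse as well. The differences were modest, and the groups did not overlap in any of these 4 genes.

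The targets of the aryl hydrocarbon receptor were not higher. Of 12 tested genes of the receptor pathway, 0 were higher and 3 lower at an unadjusted p under 0.05 in edgeR (median -0.033, DESeq2 called 0). Cyp1a1 had 28.5, 27.3 and 21.2 CPM in saline and 16.4, 15.4 and 22.6 CPM in oil mice, with overlap (-0.50 ± 0.18, adjusted p = 0.500). Aldh3a1 (-0.59 ± 0.20) and Ugt1a6a (-0.27 ± 0.10) were lower in every oil mouse. The receptor Ahr itself was at 84.9 to 117 CPM in saline and 81.9 to 95.5 CPM in oil mice. In the Nrf2 oxidative stress response, 2 of 29 genes were higher and 2 lower (median 0.001). Hmox1 (heme oxygenase 1) had 37.5, 40.6 and 35.7 CPM in saline and 57.7, 40.2 and 75.1 CPM in oil mice, so that oil mouse 5 lay among the saline mice (0.61 ± 0.20, adjusted p = 0.468).

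Bpifa1 (chr2:154142880-154149219, plus strand), a secreted protein of airway epithelium that binds bacterial products, had the lowest log2 fold change of the 15 genes with lower levels named by their p values. It was at 423, 235 and 167 CPM in saline and 72.6, 109 and 80.4 CPM in oil mice (-1.66 ± 0.32, adjusted p = 0.236, and 0.0231 in DESeq2). The saline mice differed from each other more than the oil mice did. Fabp1, a fatty acid binding protein, had 7.39, 7.05 and 7.24 CPM against 3.42, 4.43 and 3.01 CPM (-1.003 ± 0.21, adjusted p = 0.256), and Pon1, an esterase made with lipoproteins, 58.0, 51.5 and 49.3 CPM against 35.7, 35.6 and 22.9 CPM (-0.76 ± 0.17, adjusted p = 0.315). The pseudogenes Rpl15-ps3 and Gm1821 were also among the 15, and their reads can be shared with their parent genes. Other genes of this group were Zfp131, Col12a1, Amy1, Ryr2, Unc45b, Polr1a and Ppbp, with log2 fold changes of -0.87 to -0.44.

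Marker lists of cell types give what else moved with these genes. The summed level of 26 neutrophil genes in the table was 798, 694 and 658 CPM in saline and 905, 1014 and 1779 CPM in oil mice. Of the 24 tested, 11 had an unadjusted p under 0.05 with higher and 0 with lower levels, and the median was 0.821. Oil mouse 6 stood apart here, with 509 CPM of the G-CSF receptor gene Csf3r against 175 and 190 CPM in oil mice 4 and 5 and 106 to 152 CPM in saline mice. Without oil mouse 6 the median of the list was 0.389, its lowest value with 1 mouse left out. Of 22 genes of monocytes and interstitial macrophages 9 were higher and 0 lower (median 0.524, summed level 3893 to 4415 CPM in saline and 4461 to 6004 CPM in oil mice), and of 17 genes of alveolar macrophages 7 were higher and 1 lower (median 0.277, summed level over the 18 listed in the table from 1280 to 1605 CPM against 1663 to 1843 CPM). The part of these cells in the higher levels of secreted, phagosome and lysosome genes was not tested.

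Lymphocyte genes had smaller differences. Of 30 T and NK cell genes 3 were higher and 0 lower (median 0.145), and of 23 B and plasma cell genes 1 was higher and 0 lower (median 0.107). Of the CD3 chains of the T cell receptor, Cd3e was at 8.11 to 10.6 CPM in saline and 11.1 to 12.5 CPM in oil mice, while Cd3d (3.42 to 5.26 CPM against 3.65 to 4.39 CPM) and Cd3g (6.89 to 11.0 CPM against 8.20 to 11.3 CPM) overlapped. Foxp3, the factor of regulatory T cells, was higher in every oil mouse, at 1.84 to 3.87 CPM in saline and 4.71 to 6.44 CPM in oil mice (0.92 ± 0.30, adjusted p = 0.453). Of 16 dendritic cell genes 3 were higher and 0 lower (median 0.279).

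Genes of structural cells of the lung had small differences. Log2 fold changes were below 0 in 7895 of all 14914 genes tested, in 22 of 24 endothelial and 19 of 21 ciliated cell genes, in 18 of 26 of fibroblasts and smooth muscle and 10 of 15 of type 1 cells, in 4 of 18 of type 2 cells and in 3 of 7 of basal and neuroendocrine cells (median 0.162). Type 2 alveolar cell genes had 4 of 18 higher and 0 lower (median 0.156), type 1 cell genes 0 of 15 higher and 3 lower (median -0.155), ciliated cell genes 0 of 21 higher and 0 lower at an unadjusted p under 0.05 in edgeR (median -0.107), endothelial genes 1 of 24 higher and 3 lower (median -0.173) and fibroblast and smooth muscle genes 2 of 26 higher and 1 lower (median -0.066). Sftpc, at 12632 to 13094 CPM in saline and 10740 to 13138 CPM in oil mice, overlapped. In club and goblet cells 3 of 19 genes were higher and 3 lower (median -0.024), and Scgb1a1, at 16104 to 21322 CPM against 14572 to 17833 CPM, overlapped. Muc1, an epithelial mucin (0.48 ± 0.10, adjusted p = 0.273), and Selp, the P-selectin of activated endothelium (0.69 ± 0.16, adjusted p = 0.319), were higher in every oil mouse.

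Many muscle and adipose genes had lower levels in oil mice. The 7 thymus and lymph node genes (median 0.103) and 3 thyroid and esophagus genes (median 0.046) had 0 higher and 0 lower at an unadjusted p under 0.05 in edgeR. DESeq2 called 0 of them. Of 17 tested genes of cardiac and skeletal muscle 10 were lower and 0 higher at an unadjusted p under 0.05 (median -0.405), and the summed level of the 23 in the table was 474, 616 and 415 CPM in saline and 371, 354 and 350 CPM in oil mice. The atrial peptide gene Nppa was at 6.60, 9.00 and 3.46 CPM in saline and 2.14, 2.58 and 2.77 CPM in oil mice (-1.34 ± 0.35, adjusted p = 0.334). Of 12 tested adipose genes 7 were lower and 0 higher (median -0.699), and the 14 in the table had a summed level of 205, 180 and 159 CPM against 102, 145 and 117 CPM. Adiponectin (Adipoq) was at 6.15, 5.00 and 3.05 CPM in saline and 1.02, 2.58 and 1.35 CPM in oil mice (-1.53 ± 0.41, adjusted p = 0.350). Hemoglobin and platelet genes, which mark blood left in the tissue, had 0 of 15 higher and 2 lower (median -0.20). How much muscle, fat or blood each piece of lung held was not measured, and its part in these differences was not tested.

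Ribosomal protein genes had 5 of 52 higher and 0 lower (median 0.034), oxidative phosphorylation genes 2 of 47 higher and 0 lower (median -0.037), and Notch, Wnt and Hippo pathway genes 2 of 37 higher and 3 lower (median -0.123). Cholesterol and fatty acid genes had 0 of 45 higher and 5 lower (median -0.097), and DESeq2 called 2 lower. All 5 were among the 25 genes of fatty acid handling, of which 6 were lower in every oil mouse, and the 20 genes of cholesterol synthesis had 0 higher and 0 lower at that p in edgeR. The 16 heat shock genes had 0 higher and 0 lower at that p in edgeR (median -0.242), and saline mouse 2 stood apart, with 146 CPM of Hspa1a against 12.6 and 15.4 CPM in the other saline mice and 10.5 to 21.1 CPM in oil mice. Without saline mouse 2 the median of the list was 0.115. Clock genes differed between mice of the same group, with Arntl at 24.9, 14.2 and 12.2 CPM in saline and 22.2, 7.97 and 15.5 CPM in oil mice, and had 0 of 21 higher and 1 lower (median -0.018). The glucocorticoid-induced gene Fkbp5 likewise ran from 16.3 to 57.2 CPM in saline and from 18.3 to 70.4 CPM in oil mice.

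Female mice received the same oil, and the difference between the sexes was tested as the interaction of sex and oil over 12 mice. Of 15376 genes tested, 0 passed an adjusted p of 0.05 in edgeR, 254 had an unadjusted p under 0.05 (1.65%), and DESeq2 called 12 with a larger and 4 with a smaller log2 fold change in male mice. In female mice alone 0 of 14837 genes passed, 7 were higher and 9 lower at an unadjusted p under 0.05. Male and female counts came as separate tables, and anything else that set those tables apart cannot be told apart from sex. Female saline mouse 3 and female oil mouse 6 had 45.09% and 22.56% of their counts on mitochondrial genes, and the spread between female mice was wide.

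Lcn2 had a log2 fold change of 1.69 in male and -0.72 ± 0.35 (SE) in female mice, and the interaction had an adjusted p of 1 in edgeR and of 9.98e-05 in DESeq2. Saa3 had 3.61 in male and -2.07 ± 0.95 in female mice, Timp1 1.44 and -1.08 ± 0.50, Ly6i 1.94 and -0.84 ± 0.64, Cd68 1.00 and -0.77 ± 0.35, and Retnla 3.33 and -1.39 ± 0.61. All 6 of these genes were called different between the sexes by DESeq2 and not by edgeR. They were named for their values in the same male mice, so the interaction is not independent of that choice. Prg4 had a log2 fold change of -0.83 ± 1.44 in female mice. Of the 14 secreted products of IL-17 and TNF signaling, 7 had an interaction at an unadjusted p under 0.05, and their median was 0.904 in male and -0.92 in female mice. For phagosome genes the medians were 0.63 and -0.116 with 6 of 36 below that p, for mitosis genes 0.627 and -0.115 with 4 of 59, and for xenobiotic metabolism genes -0.193 and 0.188 with 6 of 40. Adipose genes had a median of -0.699 in male and 2.84 in female mice, with 6 of 12 below that p.

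**Figure D4:**
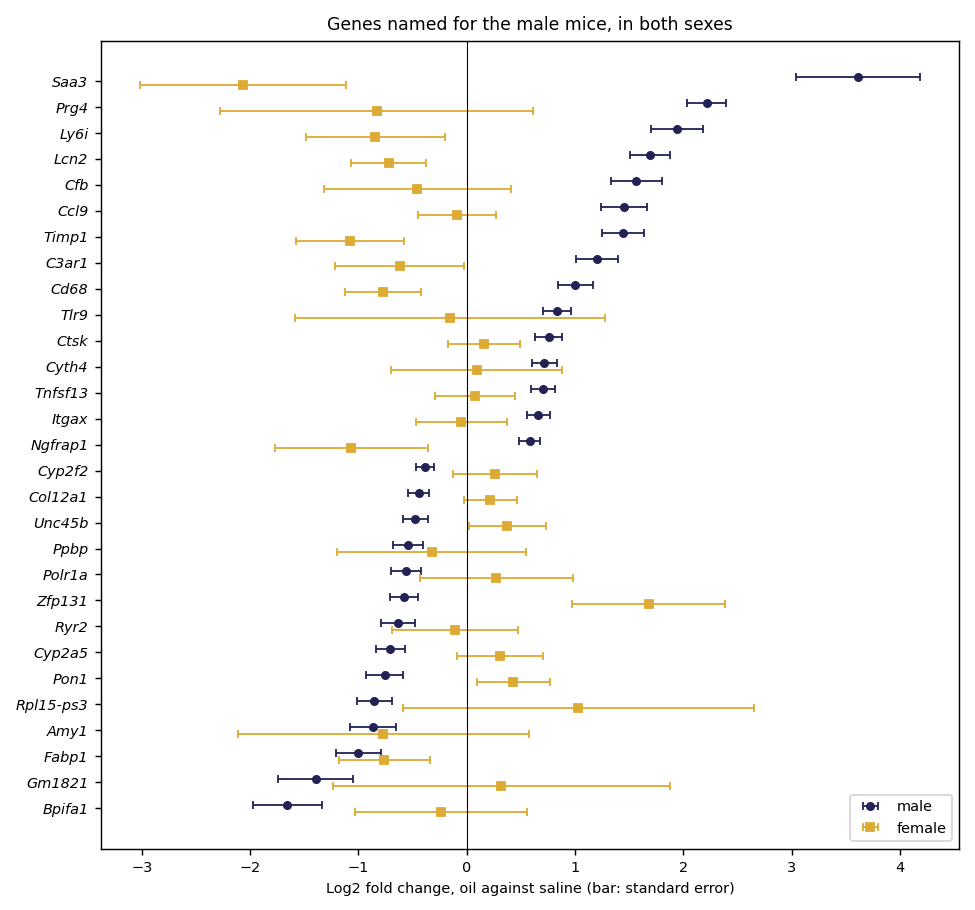
Log2 fold change (oil against saline, 3 mice each) with its standard error for 29 of the genes named by their p values in male mice, in male (dark circles) and female mice (yellow squares). Female bars are wider throughout, and Saa3 (-2.07), Timp1 (-1.08), Cd68 (-0.77) and Lcn2 (-0.72) lie below 0 in female mice.

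The other male groups place the oil mice among the exposures of the study, and all are given as levels, since they share the saline mice. Levels here were scaled over all 18 male mice. Lcn2 was at 145.7 to 310.1 CPM with Corexit 9500, 265 to 431 CPM with Corexit 9527, 149 to 174 CPM with 9500+oil and 166 to 320.4 CPM with 9527+oil, against 320.0 to 542 CPM with oil alone. Prg4 was at 10.6 to 15.9 CPM with Corexit 9500, 4.81 to 8.30 CPM with Corexit 9527, 3.54 to 17.7 CPM with 9500+oil and 10.3 to 21.6 CPM with 9527+oil, so that Corexit 9500, 9500+oil and 9527+oil each held mice within or above the range of the oil mice. Saa3, at 16.8 to 41.1 CPM with oil, reached at most 11.02 CPM in the 12 mice of the other treated groups. Cxcl9 was at 3.52 to 5.70 CPM with oil, and among those 12 mice it passed 2 CPM in a pair of Corexit 9527 mice (2.96 and 3.62 CPM). Ly6i was at 6.27 to 9.32 CPM with oil and passed 4 CPM elsewhere in 1 mouse of the 9527+oil group (6.27 CPM). Retnla was spread in the groups given a dispersant alone, from 104.1 to 305 CPM with Corexit 9500 and from 168 to 925 CPM with Corexit 9527. Other named genes differed in this respect. Timp1 was at 27.1 to 114 CPM with Corexit 9527 against 17.4 to 28.6 CPM with oil. Serpina3n was at 310 to 491 CPM with Corexit 9527 against 250 to 366 CPM with oil. Cfb, at 103 to 173 CPM with oil, reached at most 76.5 CPM in the other treated groups.

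**Figure D5:**
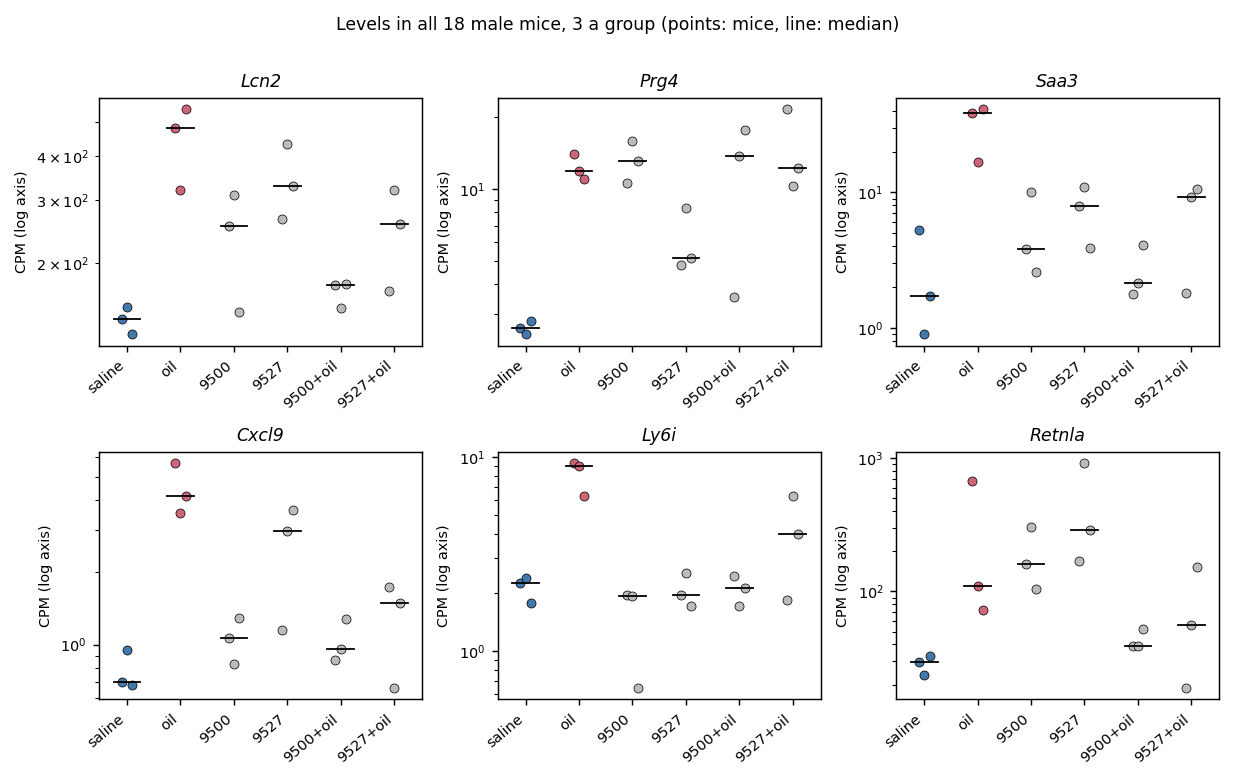
Level in CPM (log axis) of 6 genes in all 18 male mice, 3 in each of 6 groups, with oil mice in red, saline mice in blue and the median of each group as a line. Saa3 and Cxcl9 were highest with oil alone (medians 38.7 and 4.15 CPM), and Prg4 reached the oil level in mice of 3 other groups.

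Averaged over the 36 phagosome, Fc receptor and oxidase genes, the log2 level lay 0.30, 0.61 and 0.85 above the mean of the saline mice in oil mice 4, 5 and 6, and between -0.17 and 0.53 in the 12 mice given dispersant. The 24 neutrophil genes lay 0.18, 0.39 and 1.19 above it in the oil mice and from -0.95 to 1.38 in the other 12. For the 59 mitosis genes the order was another, with 0.57, 0.24 and 0.82 in the oil mice, 0.34 to 0.89 with Corexit 9500 and 0.64 to 1.5 with Corexit 9527. The 14 airway epithelial injury genes lay at 0.01, -0.30 and -0.02 in the oil mice, against 0.33 to 0.57 with Corexit 9500 and 0.61 to 1.33 with Corexit 9527. The 12 adipose genes lay at -1.36, -0.24 and -1.02 in the oil mice and at 0.33, 0.05 and -0.37 in the saline mice. They lay at -1.18 to -0.25 with Corexit 9500 and -0.78 to -0.31 with Corexit 9527. The 17 muscle genes lay at -0.43, -0.23 and -0.46 in the oil mice, -0.19 to 0.07 with Corexit 9500 and -0.98 to -0.35 with Corexit 9527. The 40 xenobiotic genes lay at -0.16 to -0.07 in the oil mice, -0.22 to 0.14 with Corexit 9500 and -0.4 to 0.2 with Corexit 9527.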

How the data were processed

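The authors estimated reads per transcript of the GRCm38 cDNA set with Salmon, combined them with tximport and deposited expected counts without normalization, 1 table for male and 1 for female mice. The deposited values were whole numbers already, in 18295 male rows. Rows sharing a name (4, holding 0.0128% of counts) were left out, and 24 rows named by a date were kept. Of 18291 symbols, 17411 (95.19%) matched GENCODE M21, which gave positions. Salmon can divide reads among near-identical copies. The 6 male libraries held at least 17703655 counts and the female ones compared with them at least 17501180, which limits low genes most. The intervals are standard errors over mice.

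Genes were tested with edgeR 4.0.16 in R 4.3.3 (quasi-likelihood F-test, TMM, filterByExpr with a minimum count of 10, Benjamini-Hochberg over all genes tested, threshold 0.05), with DESeq2 1.42.0, voom of limma 3.58.1, other scalings and filters, and each mouse left out as alternatives. The labels name separate mice. An SE is the log2 fold change over the square root of F. CPM used effective library sizes, and mean log2 CPM a prior count of 2.

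The comparison, the 50 gene lists (1338 symbols, 1294 in the table, 1214 tested) and the rules were chosen with earlier results of these data known. Genes named were, in each direction, the 15 smallest p values among genes whose mean reached 1 on the log2 CPM scale and whose groups did not overlap, and in each list up to 3 tested members with the smallest p and its first 3 symbols. List counts carry no test. Mouse numbers are shared by both sexes, and the main fit did not use them to pair mice. Correlations of deviations between same-numbered mice ran from -0.386 to 0.237. With 3 mice a group they cannot show whether same-numbered mice shared a day or a handling order. Genes withheld from the text are not reported here.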

Additional observations from a re-analysis of the deposited data

How the results depend on the processing

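All 178 genes followed, among them every gene given with a fold change, kept their direction under 13 other settings. Many of them were named because their groups did not overlap. Leaving 1 mouse out could hardly reverse such a gene, so this count is no separate support for them. The number with an adjusted p under 0.05 was 1 in the comparison as reported, 173 with DESeq2, 4 with voom (which gave oil mouse 5 a weight of 0.626), 2 with no filter on low counts, 2 with at least 10 counts in every mouse and 0 with all 6 male groups in one fit. With 1 mouse left out it ran from 0, without any saline mouse or without oil mouse 4 or 6, to 9 without oil mouse 5. The 9 were Lcn2, Prg4, Timp1, Cfb, Serpina3n, Ptafr, B430306N03Rik and the pseudogenes Gm4294 and Eif4a-ps4, the last lower. At an unadjusted p under 0.05, genes higher ran from 540 without oil mouse 6 to 1232 without oil mouse 5, and genes lower from 186 without oil mouse 6 to 913 without oil mouse 5, with 234 without oil mouse 4 and 600 in voom. Size factors and upper-quartile scaling left 1 called gene, Prg4. For the interaction of sex and oil the count of 0 became 16 with DESeq2 (356 larger and 192 smaller in male mice at an unadjusted p under 0.05) and 1, Prg4, without female saline mouse 3 and female oil mouse 6 (610 and 322). With no filter 222 were larger and 147 smaller, with size factors 197 and 66 in place of 165 and 89, and with at least 10 counts in every mouse 191 and 63. With mouse number as replicate block 66 were larger and 19 smaller and 0 passed adjustment. With 1 of the 12 mice left out 0 passed adjustment, larger ones ran from 89 without male oil mouse 6 to 439 and smaller ones from 39 to 436, both highest without female saline mouse 3. Larger ones were also 260 and 321 without female saline mouse 1 or 2 and 108 without male saline mouse 3. Smaller ones were also 232 and 219 without female saline mouse 2 or female oil mouse 5, 58, 56 and 54 without male saline mouse 1, 2 or 3, and 42 without male oil mouse 4 or female oil mouse 6. The causes were not tested. With 1 mouse left out, the medians of 9 of 50 lists took both signs. Heat shock ran from -0.366 to 0.115 (without saline mouse 2), clock from -0.199 (without saline 1) to 0.105 (without saline 3), club and goblet from -0.167 (without oil 4) to 0.148 (without oil 6), oxidative phosphorylation from -0.057 to 0.024 (without saline 1) and basal cells from -0.009 (without saline 2) to 0.286. Nrf2 genes (0.001) were below 0 each time (-0.082 to -0.01). Many others kept their sign and moved by over 1.5 times, as the plot of list medians shows, among them CXC (to 0.275 without saline 1) and CC chemokines (0.282 without oil 5 to 0.663 without oil 6), interferon-induced (0.012 without oil 4 to 0.203 without saline 1), MHC class II (to 0.478 without saline 1), matrix (to 0.048 without oil 6), B cells (0.013 without saline 2 to 0.404 without saline 1), T and NK cells (to 0.051 without saline 2), ciliated cells (to -0.007 without oil 6), aryl hydrocarbon receptor (to -0.131 without oil 4), muscle (to -0.253 without saline 2) and adipose genes (to -1.247 without oil 5). With 3 mice a group, genes under a few CPM had wide errors.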

Other observations

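Oil mouse 4 had high levels of goblet cell genes, picked here with their values in view. The secreted mucin gene Muc5ac was at 5.66, 6.26 and 6.69 CPM in the saline mice and 91.7, 13.0 and 9.62 CPM in oil mice 4, 5 and 6 (log2 fold change 2.61 ± 0.80, SE, adjusted p = 0.409). Clca3, a calcium-activated chloride channel regulator that goblet cells secrete, was at 14.4, 12.9 and 20.2 CPM in saline and 649, 30.6 and 10.5 CPM in oil mice, with overlap. Muc5b had 228, 283 and 291 CPM against 670.3, 329 and 289 CPM. In these 3 genes and in Retnla (679 CPM) and Ccl22 (39.3 CPM, against 13.1 and 16.7 CPM), a chemokine of type 2 traffic, oil mouse 4 was the highest of the 6 mice, whereas oil mouse 6 was the highest in Csf3r, Cxcr2 (95.7 CPM, against 24.3 to 41.5 CPM in the other 5 mice) and Il1r2 (14.5 CPM, against 1.74 to 4.10 CPM).

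Several genes of white blood cells outside the lists, also picked with their values in view, had higher levels in every oil mouse. The myeloid transcription factor gene Spi1 (PU.1) had 51.3, 40.5 and 48.8 CPM in saline and 65.7, 67.5 and 97.3 CPM in oil mice (0.71, adjusted p = 0.319), and Ptafr, the receptor of platelet-activating factor, 8.98, 8.11 and 6.83 CPM against 21.7, 13.6 and 22.9 CPM (1.29, adjusted p = 0.169). Of genes that act on actin, Tmsb10 was at 224, 188 and 194 CPM against 338, 292 and 312 CPM (0.64, adjusted p = 0.169), Cotl1 at 107, 80.6 and 92.8 CPM against 177, 143 and 202 CPM (0.90, adjusted p = 0.181) and Pfn1 at 360, 369 and 388 CPM against 486, 470 and 558 CPM (0.44, adjusted p = 0.287). The actin-severing gene Gsn went the other way, at 2923, 3130.1 and 3104 CPM against 2463, 2439.8 and 2442 CPM (-0.32, adjusted p = 0.319). B2m, the light chain of MHC class I, had 1456, 1691 and 1932 CPM against 2382, 2351 and 2231 CPM (0.45, adjusted p = 0.319).

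Gm4294, a processed pseudogene, and Kcnj8, a potassium channel gene, were listed at 0 in all 3 saline mice and at 1 CPM or more in all 3 oil mice, at 4.28 to 11.8 CPM and 1.06 to 3.38 CPM. In the 12 male mice of the other groups Gm4294 was at 0 in 7 and at 1.66 to 8.66 CPM in the rest, and Kcnj8 was at 0 in 6 and at up to 3.79 CPM in the rest. The pseudogene Gm28661 was at 423, 0.79 and 428 CPM in the saline mice and at 0, 28.9 and 1.25 CPM in the oil mice, so that mice of the same group were far apart.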
